A study of Homo sapiens with 4 samples.

Results

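The histone cluster genes were described across 4 RNA sequencing libraries of BEAS-2B, an established human cell line from the epithelium of the bronchus. The members were all 73 of the 24424 gene symbols in the count files that start with HIST and a digit, and they were chosen by symbol alone. The genes were taken up because earlier results of these same libraries were known, so their differences are given as a description, with no test. The 4 groups were Control (no treatment), LPS (LPS for 2 hr), WT PDZ+LPS and mut PDZ+LPS (peptide for 24 hr and then LPS for 2 hr). The WT PDZ peptide was built on the first PDZ domain of the tight junction protein ZO-1 and carried a TAT part for entry into cells and a FITC tag, and in the mut PDZ peptide a pair of glycines was replaced by alanines. Each group had 1 library, all from the same line, and no library held a peptide without LPS, so neither peptide can be told apart from its combination with LPS. With 1 library in a group, replicates could not be compared, so the text holds no p-value.

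Histones are the proteins around which DNA is wound. The core histones H2A, H2B, H3 and H4 form the nucleosome, and the linker histone H1 binds the DNA between nucleosomes. Cells make most of their histones in S phase, when DNA is copied, from genes that lie in clusters and carry no introns in their main form. The mRNAs of these genes are the only mRNAs of animal cells that usually end without a poly(A) tail: they end just after a short stem-loop, which is bound by the protein SLBP, and they are broken down when DNA synthesis stops. Some of these genes also yield longer transcripts that run past the stem-loop and receive a poly(A) tail. The libraries here were made after poly(A) selection, so the counts measure the histone RNA that passed this selection and not the whole of the histone mRNA.

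In GENCODE 29 (GRCh38), 56 of the 73 genes lay on chromosome 6, 16 on chromosome 1 and 1 on chromosome 12. The stem-loop was searched for in the annotated transcripts, after the stop codon, as 16 bases with a stem of 6 bases that starts with GG and a loop of 4 bases that starts with TT. It was found for 30 members in 4 forms, which are shown because they are the end signal that sets these mRNAs apart. The capitals mark the bases of the stem that pair with each other.
H2A, H2B and H3 form: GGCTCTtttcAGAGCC
H2B and H3 form: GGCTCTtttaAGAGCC
first H4 form: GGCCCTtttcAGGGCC
second H4 form: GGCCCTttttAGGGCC
The first form was that of 17 members, among them HIST1H2AE, HIST1H2BH, HIST1H2BG, HIST2H2BE and HIST2H2BF, and the second that of 5, among them HIST1H2BC and HIST1H2BD. The first H4 form was that of 5 members (HIST1H4B, HIST1H4E, HIST1H4H, HIST1H4J and HIST4H4), and the second that of 3 (HIST1H4I, HIST2H4A and HIST2H4B). A narrower search, of the last 100 bases only, found the stem-loop in 26 of all 206694 annotated transcripts (0.0126%). Of these 26, 11 were among the 104 transcripts of the members. For 32 members the annotation held the coding part only, so their ends could not be searched, and the 0 matches among the 6 H1 genes say only that these letters were not in the windows searched. In 21 of the 30 models with a stem-loop the transcript ran more than 100 bases past it, and the distance past it over the 30 models had a median of 750.5 and a highest value of 1917 bases. Among the 22 members with the highest counts, described below, 11 had a model with the stem-loop and 8 had a model that ran more than 100 bases past it. These are features of the annotation, and the count files do not show where along a transcript the reads lay.

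The start regions also differed by histone type. RefSeq promoters (GRCh38.p14, 300 bases around the start) were matched for 60 of the 73 members, and motifs were searched on both strands. The TATA box (TATAAA) was in 66.7% of the 60 and in 11.5% of all 35116 promoters of the same length. The CCAAT box (CCAAT) was in all matched H1, H2A, H2B and H3 promoters but in 23.1% of the 13 H4 promoters, against 34.6% of all promoters. The H1 box (AAACACA) was in 6 of 6 H1 promoters and in 5.64% of all promoters. The octamer (ATTTGCAT), which the POU factor OCT1 binds, was in 11 of 16 H2A and 9 of 13 H2B promoters and in 1.77% of all promoters. The 200 bases before the start of an H1 gene and of an H2B gene are shown as examples of these layouts, with the motifs in capitals on either strand.
HIST1H1D, chr6:26234988-26235187, minus strand: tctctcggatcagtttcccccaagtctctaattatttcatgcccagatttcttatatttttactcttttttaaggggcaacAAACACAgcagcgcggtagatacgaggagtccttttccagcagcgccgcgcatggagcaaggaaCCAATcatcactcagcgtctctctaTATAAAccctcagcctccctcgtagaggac
HIST1H2BK, chr6:27146859-27147058, minus strand: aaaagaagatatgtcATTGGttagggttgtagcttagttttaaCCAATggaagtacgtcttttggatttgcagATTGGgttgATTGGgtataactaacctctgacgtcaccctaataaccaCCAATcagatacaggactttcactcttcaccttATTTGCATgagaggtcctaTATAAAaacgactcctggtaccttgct
Counted from the start, the HIST1H1D promoter had its H1 box at -119, its CCAAT box at -55 and its TATA box at -30, and the HIST1H2BK promoter had its octamer at -46 and its last TATA box at -27. A match of letters is no proof that a factor binds there.

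The libraries held 19682929 to 25155647 counted reads each, the fewest in mut PDZ+LPS. Counts were divided by geometric size factors to give normalized counts. The epithelial keratins KRT7, KRT8 and KRT18 were each at 12781 or more normalized counts in every library, whereas EPCAM stayed between 34.8 and 49.5, the leukocyte marker PTPRC had 0 counts in every library and the endothelial marker PECAM1 had at most 8 counts. VIM, known from mesenchymal cells, was at 20794 to 24975 normalized counts. These genes are only part of a list of 8 epithelial markers and a list of 5 markers of other cells. All 8 of the first list averaged 16 or more over the libraries. So did 3 of the 5 markers of other cells: VIM, COL1A1 (mesenchyme) and CD14, the other leukocyte marker of the list. The mut PDZ+LPS library stood apart by transcript length. Across the 11751 genes that had both a transcript length and a mean of 16 or more normalized counts, log2 fold change and length were related with a Spearman's rho of -0.60 for mut PDZ+LPS over LPS and -0.61 for mut PDZ+LPS over WT PDZ+LPS, but 0.15 for LPS over Control and 0.07 for WT PDZ+LPS over LPS. The 10% of genes with the shortest transcripts (up to 1508 bases) had a median log2 fold change of 0.40 in mut PDZ+LPS over LPS, and most histone genes are shorter still. A correction for length and GC content was therefore also made for single genes above the minimum that had an annotated length, and not for sums.

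The histone cluster genes were a small part of each library and were highest in mut PDZ+LPS. The 73 members together had 1120 counts in Control, 781 with LPS alone, 905 with WT PDZ+LPS and 1493 with mut PDZ+LPS, which is 45.1, 31.0, 38.6 and 75.9 per 1000000 counted reads. As normalized counts the sums were 974.8, 734.7, 913.9 and 1754.3. LPS was the lowest of the 4 libraries and mut PDZ+LPS the highest. The sum in LPS was 0.754 times that in Control, with a 95% counting interval of 0.687 to 0.827. The sum in WT PDZ+LPS was 1.24 times that in LPS (1.13 to 1.37) and 0.938 times that in Control (0.858 to 1.02), so that WT PDZ+LPS and Control did not differ beyond counting error. The sum in mut PDZ+LPS was 2.39 times that in LPS (2.19 to 2.61), 1.92 times that in WT PDZ+LPS (1.77 to 2.09) and 1.80 times that in Control (1.66 to 1.95). When the sizes of the libraries were set on the 10% of genes with the shortest transcripts instead of on all genes, the log2 ratio of the sums was 0.86 in place of 1.26 for mut PDZ+LPS over LPS, and 0.54 in place of 0.94 for mut PDZ+LPS over WT PDZ+LPS. These intervals are exact binomial (Clopper-Pearson). They set 1 library against another rather than 1 condition against another, and they hold counting error alone. Reads without molecular identifiers may repeat a molecule, so the intervals may be too narrow even for counting error.

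The 5 histone types had the same order of libraries at both ends, with LPS lowest and mut PDZ+LPS highest in each. H2B, with 20 symbols, was the type with the most counts. Its summed normalized counts were 347.3 in Control, 256.8 with LPS alone, 335.2 with WT PDZ+LPS and 574.6 with mut PDZ+LPS. The 6 H1 genes summed to 225.4, 177.8, 204.0 and 403.0 in the same order. The 18 H2A genes summed to 161.0, 119.5, 136.3 and 319.6. H2B was thus first and H1 second in every library. The 15 H4 genes summed to 156.7, 117.6, 153.5 and 267.9. The 14 H3 genes, the type with the fewest counts, summed to 84.4, 63.0, 84.8 and 189.2. The make-up by type moved little: H1 took 22.3% to 24.2% of the histone counts, H2A 14.9% to 18.2%, H2B 32.8% to 36.7%, H3 8.58% to 10.8% and H4 15.3% to 16.8%. The log2 ratio of mut PDZ+LPS over LPS lay between 1.16 for H2B (0.95 to 1.38) and 1.59 for H3 (1.17 to 2.02), with H1 at 1.18, H4 at 1.19 and H2A at 1.42, and the intervals of H2B and H3 overlap. For LPS over Control the log2 ratios ran from -0.34 for H1 to -0.44 for H2B, and the interval of H3 (-0.89 to 0.04) held 0. For WT PDZ+LPS over LPS the intervals lay above 0 for H2B (0.38, 0.15 to 0.62) and H4 (0.38, 0.03 to 0.74), and held 0 for H1 (0.20), H2A (0.19) and H3 (0.43).

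**Figure D1:**
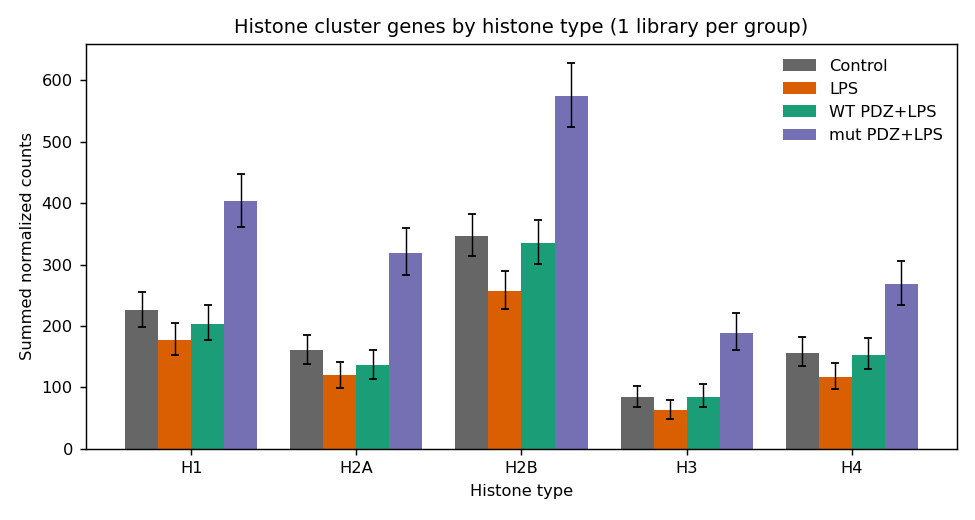
Bars give the summed normalized counts (y axis, from 0) of the histone cluster genes of each type (x axis) in each of the 4 libraries, and error bars the exact 95% Poisson interval of the counts, which covers counting error only. In every type the mut PDZ+LPS bar is the highest and the LPS bar the lowest, from 256.8 to 574.6 for H2B and from 63.0 to 189.2 for H3.

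Most of the members were at or near the limit of detection. Of the 73, 13 had 0 counts in every library, 38 were detected with a mean below 16 normalized counts, and 22 had a mean of at least 16. The number was taken from the study's legend, which gives 4 on the log2 scale for its own normalized data. Those data may be scaled in another way, and the use on a mean over the 4 libraries was made here. These 22 were 4 H1, 4 H2A, 7 H2B, 2 H3 and 5 H4 genes, and they held 605 of the 781 histone counts in LPS and 1127 of the 1493 in mut PDZ+LPS. The members just inside the minimum were HIST1H2BG (mean 17.8) and HIST1H4C (17.3), and those just outside were HIST1H2AC (15.7) and HIST1H3C (15.6). Since the mean includes the mut PDZ+LPS library, a member that is high there passes the minimum more easily. All 22 were highest in mut PDZ+LPS, and 13 were lowest in LPS, 6 in Control and 3 in WT PDZ+LPS. Among the 38 detected members below the minimum, 28 were highest in mut PDZ+LPS. The order of the libraries was not counted over all genes or over short genes alone, so no share stands beside these counts. A member was called in a comparison at a difference of at least 2-fold with at least 16 normalized counts in one of the 2 libraries. Log2 fold changes of single genes were taken after adding 1 normalized count, and values in parentheses after them are 95% counting intervals.

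**Figure D2:**
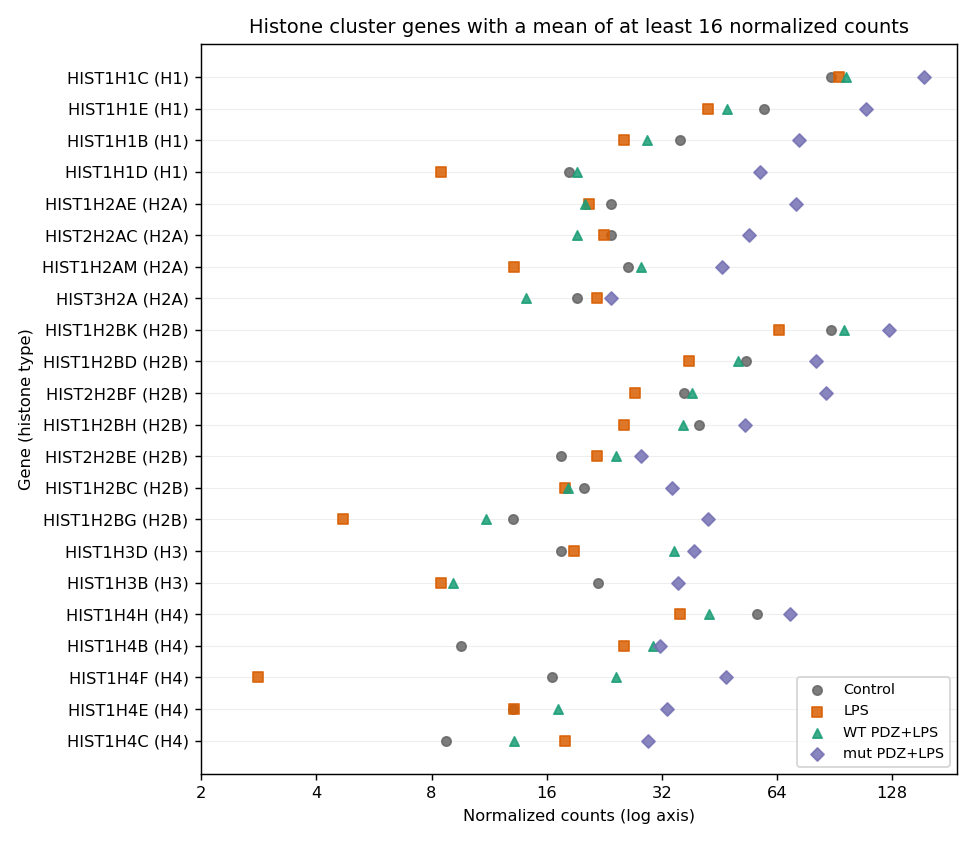
Each row is 1 of the 22 histone cluster genes with a mean of 16 or more normalized counts, grouped by histone type (y axis), and each symbol its normalized count in 1 library (x axis, log scale). The mut PDZ+LPS symbol is the rightmost in all 22 rows, from 23.5 for HIST3H2A to 155.1 for HIST1H1C.

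Of the linker histones, HIST1H1C had the highest count of all members. Its normalized counts were 88.8 in Control, 93.1 with LPS alone, 96.9 with WT PDZ+LPS and 155.1 with mut PDZ+LPS. The first 3 libraries lay close together for this gene, and mut PDZ+LPS stood above them, with a log2 fold change over LPS of 0.73 (0.35 to 1.13) that was 0.09 after the correction. HIST1H1E, a linker histone of the same cluster, was at 59.2, 42.3, 47.5 and 109.3 in the same order of libraries. HIST1H1B was at 35.7, 25.4, 29.3 and 72.8. Both had LPS lowest, and their log2 fold changes of mut PDZ+LPS over LPS were 1.35 and 1.48, or 0.69 and 0.82 after the correction. HIST1H1D, whose promoter is shown above, was at 18.3, 8.47, 19.2 and 57.6. It was called lower in LPS over Control (-1.03, -2.42 to 0.08) and higher in WT PDZ+LPS over LPS (1.09, -0.03 to 2.51), but both intervals hold 0, and both rest on the 9 counts of the LPS library. In mut PDZ+LPS over LPS it was at 2.63 (1.72 to 3.98), and at 2.06 after the correction. HIST1H1A was not higher in mut PDZ+LPS than in LPS (-0.04, -1.70 to 1.55, from 7 and 9 counts). It was at 23.5 in Control, 8.47 with LPS alone, 11.1 with WT PDZ+LPS and 8.22 with mut PDZ+LPS, below the minimum on the mean, and it was the only H1 gene whose interval lay below 0 in LPS over Control (-1.37, -2.75 to -0.34). HIST1H1T, the H1 of the testis, had 0 counts in every library.

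Of the H2A genes, HIST1H2AE was at 23.5 in Control, 20.7 with LPS alone, 20.2 with WT PDZ+LPS and 71.7 with mut PDZ+LPS. HIST2H2AC was at 23.5, 22.6, 19.2 and 54.0 in the same order. In both genes the intervals of LPS over Control and of WT PDZ+LPS over LPS held 0 and mut PDZ+LPS stood alone, with log2 fold changes over LPS of 1.74 (1.07 to 2.57) and 1.22 (0.52 to 2.04), or 1.06 and 0.30 after the correction. HIST1H2AM was at 26.1, 13.2, 28.3 and 45.8, so that LPS was the low library. It was called higher in WT PDZ+LPS over LPS (1.05, 0.13 to 2.14). An annotated transcript of HIST1H3J runs over HIST1H2AM on the same strand, so reads of the pair are uncertain. HIST3H2A, a gene of the small cluster on chromosome 1, was at 19.1, 21.6, 14.1 and 23.5, and its interval held 0 in all 4 comparisons.

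Of the H2B genes, HIST1H2BK had the highest count and, over all members, the highest mean per kilobase of transcript (246.3 normalized counts, ahead of HIST1H1C with 169.0). These lengths are those of the coding part only, so the values per kilobase are an upper estimate. HIST1H2BK was at 88.8 in Control, 64.9 with LPS alone, 95.9 with WT PDZ+LPS and 125.7 with mut PDZ+LPS. HIST1H2BD was at 53.1, 37.6, 50.5 and 81.1 in the same order. HIST1H2BH was at 40.0, 25.4, 36.4 and 52.9. These 3 genes had LPS lowest, WT PDZ+LPS near Control and mut PDZ+LPS highest. HIST2H2BF, a gene with a model that runs past its stem-loop by 1479 bases, was at 36.6, 27.3, 38.4 and 85.8. Its log2 fold change in mut PDZ+LPS over LPS of 1.62 (1.01 to 2.33) was among those least moved by the correction (1.46). HIST1H2BG was at 13.1, 4.70, 11.1 and 42.3, and at 2.92 (1.81 to 4.88) in mut PDZ+LPS over LPS, or 2.67 after the correction, against 5 counts in LPS. HIST1H2BC was at 20.02, 17.9, 18.2 and 34.1, and HIST2H2BE at 17.4, 21.6, 24.2 and 28.2. For HIST2H2BE the interval held 0 in all 4 comparisons.

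Of the H3 genes, HIST1H3D was at 17.4 in Control, 18.8 with LPS alone, 34.3 with WT PDZ+LPS and 38.8 with mut PDZ+LPS. Here both peptide libraries lay above the other two, at 0.83 (0.03 to 1.74) for WT PDZ+LPS over LPS and 1.01 (0.20 to 1.92) for mut PDZ+LPS over LPS, but after the correction the values were 0.83 and 0.11. HIST1H3B was at 21.8, 8.47, 9.09 and 35.2. It was low in LPS and WT PDZ+LPS alike, at -1.27 (-2.65 to -0.21) on the log2 scale for LPS over Control and at 1.85 (0.84 to 3.22) for mut PDZ+LPS over WT PDZ+LPS.

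Of the H4 genes, HIST1H4H was at 56.6 in Control, 35.7 with LPS alone, 42.4 with WT PDZ+LPS and 69.3 with mut PDZ+LPS. HIST1H4F was at 16.5, 2.82, 24.2 and 47.0. It had the largest differences of the 22 members in 3 comparisons: -2.20 (-4.95 to -0.79) in LPS over Control, 2.72 (1.38 to 5.48) in WT PDZ+LPS over LPS and 3.65 (2.41 to 6.39) in mut PDZ+LPS over LPS, the last at 2.81 after the correction. All 3 are set against 3 counts in LPS. HIST1H4B and HIST1H4C went the other way in LPS over Control. HIST1H4B was at 9.57, 25.4, 30.3 and 31.7, called higher in LPS over Control (1.32, 0.35 to 2.57), and its 3 libraries with LPS lay within counting error of each other. HIST1H4C was at 8.70, 17.9, 13.1 and 29.4. HIST1H4E was at 13.1, 13.2, 17.2 and 32.9. The 5 H4 genes therefore had no common order of Control and LPS, although the H4 sum was lower in LPS.

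LPS over Control asks how the cells differed after LPS alone. Of the 22 members, 7 had a higher and 15 a lower value in LPS, with a median log2 fold change of -0.43 against -0.00 over all 13072 genes that passed the same minimum. The rule for calls could be applied to 22 members, which include HIST1H1A and HIST4H4 in place of HIST1H2BG and HIST1H4E. Of these, 1 was called higher (HIST1H4B), where 3.46% of all 13277 genes tested were called higher, and 4 were called lower (HIST1H1A, HIST1H1D, HIST1H3B and HIST1H4F), where 1.41% of all genes were. Of the 59 members with a count in either library, 40 were lower in LPS and 19 higher, while 9048 of 18045 genes were lower. The interval lay below 0 for 4 of the 22 members and above 0 for 1, counts that were not made over all genes. No called member had 64 normalized counts in either library.

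WT PDZ+LPS over LPS asks what the WT PDZ peptide changed under LPS, and it shares the LPS library with LPS over Control. Of the 22 members, 18 were higher and 4 lower with the peptide, with a median log2 fold change of 0.24 (0.01 over all genes). Called higher were 4 of 22 members tested (HIST1H1D, HIST1H2AC, HIST1H2AM and HIST1H4F), where 0.635% of all genes were called higher, and 0 were called lower, where 0.733% of all genes were. All 4 had between 3 and 14 counts in LPS, under the minimum there, and could be tested only because they were higher in WT PDZ+LPS. HIST1H2AC was at 15.7 in Control, 6.58 with LPS alone, 17.2 with WT PDZ+LPS and 23.5 with mut PDZ+LPS. All 7 H2B genes and all 4 H1 genes above the minimum had positive log2 fold changes (0.02 to 1.09 and 0.06 to 1.09), and 3 of 4 H2A genes had negative ones. With a pseudocount of 5 in place of 1, 1 member was called higher, and the share over all genes was not taken at that setting.

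mut PDZ+LPS over LPS asks the same of the mut PDZ peptide. All 22 members were higher, with log2 fold changes of 0.11 (HIST3H2A) to 3.65 (HIST1H4F) and a median of 1.16, against -0.02 over all genes. Of the 31 members tested, 21 were called higher, where 2.05% of all genes were called higher, and 0 were called lower, where 1.9% of all genes were. The 21 were 3 H1, 6 H2A, 5 H2B, 5 H3 and 2 H4 genes. The rule lets a gene in through either library: 15 of the 31 had under 16 normalized counts in LPS and could be tested only because they were high in mut PDZ+LPS, and 13 of these were among the 21. Of the 16 members with at least 16 in LPS, 8 were called higher, as were 0.732% of the 12987 genes with that minimum. Of the 59 members with a count in either library, 54 had the higher value in mut PDZ+LPS and 5 had the lower, while 9075 of 17970 genes were higher. The 20 members with at least 16 normalized counts in Control, a library outside this comparison, had a median of 1.06, and 19 of them were higher. The length trend moved with this difference. After the correction for length and GC content the median of the 22 was 0.67, 20 remained above 0, and HIST3H2A (-0.43) and HIST1H4B (-0.36) were below. After the same correction 11 of 31 members tested were called higher, 7 of them among the 22, where 1.07% of 11966 genes were called higher. Of these 11, only HIST1H2AE and HIST2H2BF had at least 16 normalized counts in LPS. The others could be tested only through mut PDZ+LPS. Only 105 of the 11751 genes had a transcript under 700 bases, so that the trend was weakly fixed at the lengths of most histone genes, and the part of length in the difference was not tested further.

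**Figure D3:**
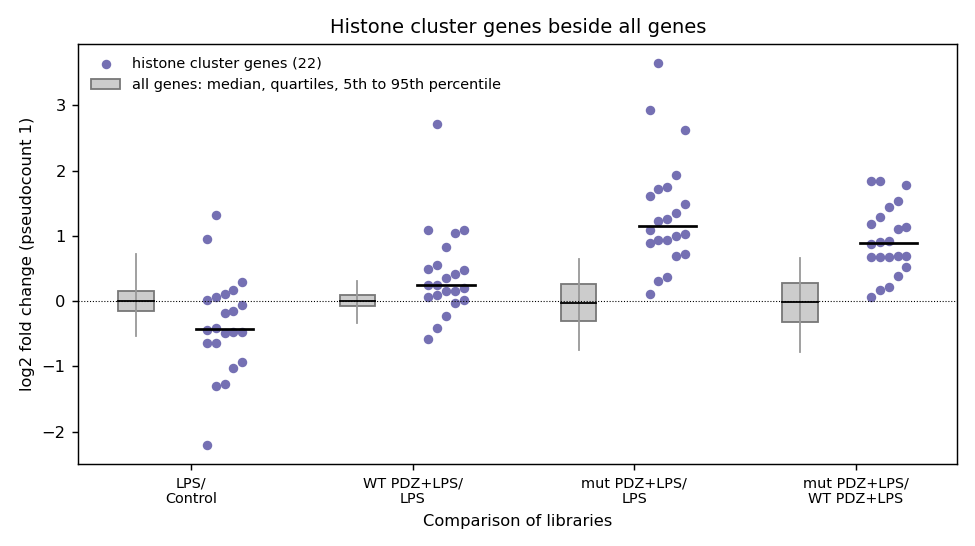
Points are the log2 fold changes (y axis, pseudocount 1) of the 22 histone cluster genes in the 4 comparisons (x axis) with their median as a line, beside the median, quartiles and 5th to 95th percentile of all 13072 genes. The members' medians are -0.43, 0.24, 1.16 and 0.89, and all genes have medians within 0.03 of 0. Most genes have far higher counts than the histone genes, so their spread holds less counting error.

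mut PDZ+LPS over WT PDZ+LPS compares the peptides, which differ by the exchange of the pair of glycines, at the same times and with the same LPS. All 22 members were higher with the mut PDZ peptide, with log2 fold changes of 0.06 (HIST1H4B) to 1.85 (HIST1H3B) and a median of 0.89 (-0.02 over all genes). Of the 32 members tested, 16 were called higher, where 2.12% of all genes were called higher, and 0 were called lower, where 2.14% of all genes were. Here 12 of the 32 had under 16 normalized counts in WT PDZ+LPS and could be tested only through mut PDZ+LPS, and 10 of these were among the 16. Of the 20 members with at least 16 in WT PDZ+LPS, 6 were called higher, as were 0.799% of the 13018 genes with that minimum. The interval lay above 0 for 15 of the 22, a count that was not made over all genes. The correction lowered the median of the 22 to 0.39 with 18 above 0. After it 5 of 31 members tested were called higher (HIST1H2AE, HIST1H2BG, HIST1H2BL, HIST1H3B and HIST1H3H), where 1.14% of 11959 genes were. Of these 5, only HIST1H2AE had at least 16 normalized counts in WT PDZ+LPS, and the others were tested only through mut PDZ+LPS. Among the 22, HIST1H1D (0.95), HIST1H2AE (1.08), HIST1H2BG (1.57), HIST1H3B (1.04) and HIST2H2BF (0.98) had the highest corrected values, whereas HIST1H3D (-0.72) and HIST1H4B (-0.62) had the lowest. HIST1H2BK, the highest H2B gene, was at 0.39 (-0.02 to 0.80) before and -0.49 after the correction, with a length of the coding part only. This comparison shares the mut PDZ+LPS library with the last.

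**Figure D4:**
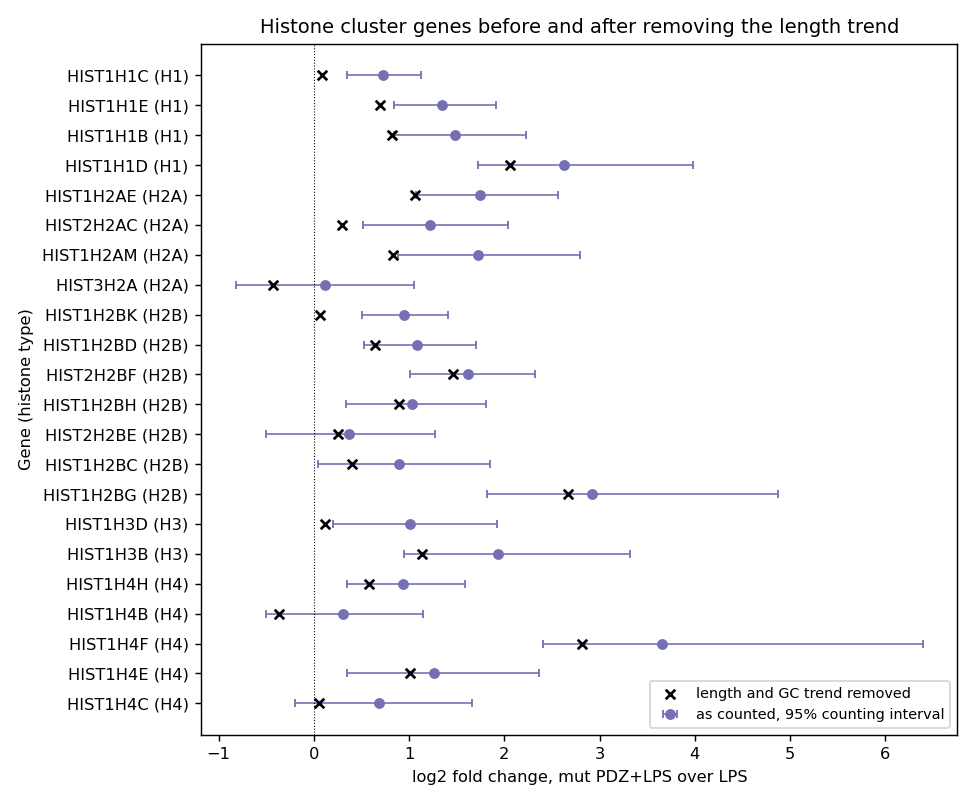
For each of the 22 histone cluster genes (y axis) the circle gives the log2 fold change of mut PDZ+LPS over LPS (x axis) with its 95% counting interval, and the cross the value after the length and GC trend was removed. All circles lie above 0, and the crosses of HIST3H2A and HIST1H4B lie below 0.

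The 38 detected members below the minimum had means from 0.24 (HIST2H2AA4) to 15.7 normalized counts. They were 1 H1, 11 H2A, 12 H2B, 8 H3 and 6 H4 genes. Together with the 13 undetected members they summed to 268.1 normalized counts in Control, 165.6 with LPS alone, 193.9 with WT PDZ+LPS and 430.0 with mut PDZ+LPS. LPS was the lowest and mut PDZ+LPS the highest library here as in the genes above the minimum, which summed to 706.7, 569.1, 720.0 and 1324.2, but WT PDZ+LPS lay below Control here (0.723 times, 0.601 to 0.869) and near it in the genes above the minimum (1.02 times, 0.920 to 1.13). Single genes of this group rested on few reads. HIST1H3H, for example, had 7 counts in Control, 1 with LPS alone, 4 with WT PDZ+LPS and 17 with mut PDZ+LPS, and HIST1H2BJ had 5, 10, 0 and 13. The 13 members with 0 counts were HIST1H1T, HIST1H2AA, HIST1H2BA and HIST3H3, which are known as testis genes, the pseudogene HIST1H2APS1, and HIST1H3E, HIST1H4G, HIST1H4K, HIST2H2AA3, HIST2H3A, HIST2H3C, HIST2H4A and HIST2H4B. A count of 0 allows up to 3 counts in that library. The last 6 have near-identical copies. In all, 12 members shared at least 50% of their windows of 100 bases with another member, and these 6 were among them. The coding parts of HIST2H4A and HIST2H4B, of HIST2H3A and HIST2H3C, of HIST2H2AA3 and HIST2H2AA4, and of HIST1H4J and HIST1H4K were identical. Reads of such copies map to both places, so a 0 here does not say that the genes were silent, and 54 members shared no window.

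By position, the 56 genes of the HIST1 cluster summed to 835.5 normalized counts in Control, 604.9 with LPS alone, 787.6 with WT PDZ+LPS and 1505.2 with mut PDZ+LPS. The 13 HIST2 genes summed to 95.7, 92.2, 101.0 and 198.6. The HIST1 sum was lower in LPS than in Control (log2 ratio -0.47, -0.61 to -0.32), and for the HIST2 sum the interval held 0 (-0.05, -0.46 to 0.35); the difference between the clusters was not tested. Both were higher in mut PDZ+LPS than in LPS, at 1.32 and 1.11. H2A and H2B genes often lie head to head with a shared start region, and 8 such pairs with starts 194 to 248 bases apart were found. In the pair HIST2H2BE and HIST2H2AC, both above the minimum, the mut PDZ+LPS over LPS log2 fold changes were 0.37 (-0.51 to 1.27) and 1.22 (0.52 to 2.04), with overlapping intervals.

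Genes that act with the histone genes were given from lists. The replacement histones are made outside S phase as well, from mRNAs with a poly(A) tail. Their 14 symbols had a log2 ratio of their sums of 0.03 for LPS over Control, 0.01 for WT PDZ+LPS over LPS and 0.31 in mut PDZ+LPS over LPS. H2AFZ, which codes for a variant of H2A found at active promoters, was at 12389 normalized counts in Control, 12742 with LPS alone, 12473 with WT PDZ+LPS and 15911 with mut PDZ+LPS. H3F3B, a gene for the replacement histone H3.3, was at 20844, 22719, 22747 and 26852. Both were highest in mut PDZ+LPS, by 0.32 and 0.24 over LPS, which were -0.05 and 0.23 after the correction. The median of the 11 genes of this list above the minimum went from 0.31 to 0.06 in mut PDZ+LPS over LPS with the correction. H3F3A, the other gene for that protein, was listed at 0 counts in Control and had 114 with LPS alone, 297 with WT PDZ+LPS and 272 with mut PDZ+LPS. It was called higher in LPS over Control and in both peptide libraries over LPS and was the only gene of this list that was called, and since it has processed copies elsewhere in the genome its counts are uncertain.

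The factors that make and process histone mRNA did not share the members' pattern in their sums. The 21 genes of this list summed to a log2 ratio of 0.02 in LPS over Control, 0.01 in WT PDZ+LPS over LPS and -0.09 in mut PDZ+LPS over LPS. SLBP, the stem-loop binding protein, was at 3037 in Control, 2806 with LPS alone, 3051 with WT PDZ+LPS and 3384 with mut PDZ+LPS. NPAT, the coactivator of histone gene transcription, was at 1458, 1636, 1646 and 1136. SLBP was highest and NPAT lowest in mut PDZ+LPS as counted. Their log2 fold changes over LPS there were 0.27 and -0.53, or 0.09 and -0.23 after the correction, which moved the median of the list from -0.19 to -0.01. The 45 S-phase genes summed to 0.04, -0.00 and -0.08 in these comparisons. In LPS over Control, 15 of them were higher and 30 lower, with a median of -0.03. In mut PDZ+LPS over LPS their median went from -0.02 to -0.10 with the correction, and that of all genes from -0.02 to -0.04. PCNA, the sliding clamp of DNA polymerase, was at 7032, 7153, 6827 and 8925. CCNE1, a cyclin of entry into S phase and in both lists, was the only gene of either list that was called in any of the 4 comparisons, at 82.7, 39.5, 74.7 and 50.5, and it was called lower in LPS over Control (-1.05). CCNE2 was at 585.7, 717.7, 639.2 and 564.0. The 19 histone chaperones summed to 0.07, -0.01 and -0.08, and 0 of them were called in any of the 4 comparisons. Whether the libraries differed in the share of cells in S phase cannot be told apart from a change of RNA per cell in such bulk samples.

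The summed counts of RNAs that carry no poly(A) tail were also highest in mut PDZ+LPS. The list held 397 symbols of small nucleolar and Cajal body RNAs and of other such RNAs, whose counts summed to 395.1 normalized counts in Control, 377.2 with LPS alone, 338.3 with WT PDZ+LPS and 826.0 with mut PDZ+LPS. The log2 ratio of their sum was 1.13 (0.95 to 1.31) in mut PDZ+LPS over LPS and 1.29 (1.10 to 1.48) in mut PDZ+LPS over WT PDZ+LPS, beside 1.26 and 0.94 for the histone genes. In LPS over Control and WT PDZ+LPS over LPS it was -0.07 (-0.26 to 0.13) and -0.16 (-0.37 to 0.06), beside -0.41 and 0.31 for the histone genes. RMRP, the RNA of the RNase MRP enzyme, was at 159.3 in Control, 108.2 with LPS alone, 108.0 with WT PDZ+LPS and 321.9 with mut PDZ+LPS. RPPH1, the RNA of RNase P, was at 54.8, 40.4, 36.4 and 141.0. SCARNA2 was at 31.3, 30.1, 35.3 and 88.1. Each of these was highest in mut PDZ+LPS, and RMRP was also lower in LPS than in Control (-0.55, -0.91 to -0.21). Most of the rise of the sum from 377.2 to 826.0 lay in RMRP, RPPH1 and SCARNA2. From LPS to mut PDZ+LPS, 49 of the 74 listed symbols with a count in either library rose and 25 fell. Among the 59 histone genes with a count, 54 rose and 5 fell. From WT PDZ+LPS to mut PDZ+LPS the split was 55 to 17 among 72 listed symbols, most of them with few counts. In mut PDZ+LPS over LPS, 5 of 8 tested were called higher (RMRP, RPPH1, TERC, SCARNA2 and SCARNA7), where 2.05% of all genes were. The same 5 were called higher of 7 tested in mut PDZ+LPS over WT PDZ+LPS, where 2.12% of all genes were. In WT PDZ+LPS over LPS only 5 of the list could be tested. Part of the 8 and of the 7 therefore entered only through mut PDZ+LPS. These RNAs are short and were counted after poly(A) selection like the histone mRNAs, and the part of the selection or of RNA length in the higher histone counts of this library was not tested.

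**Figure D5:**
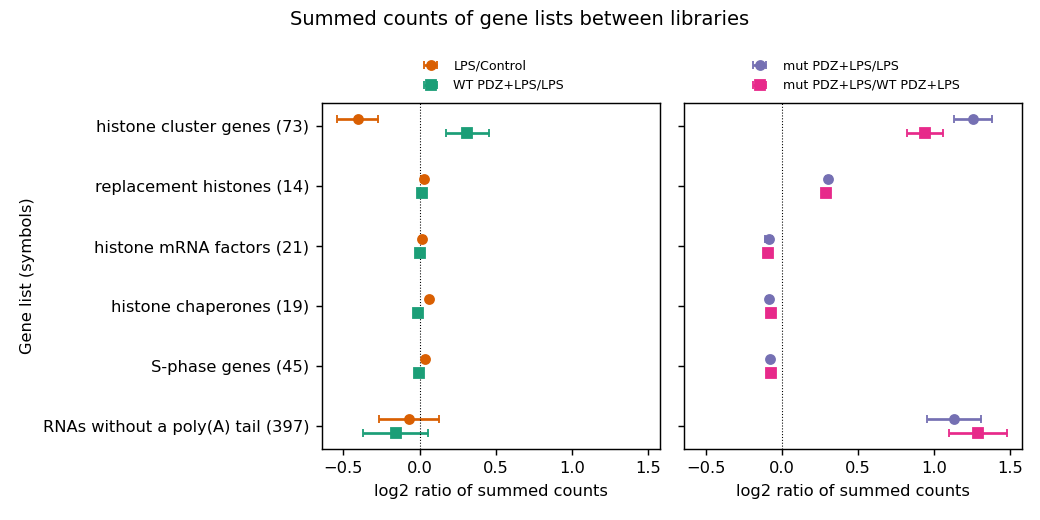
Points give the log2 ratio of summed counts (x axis) of the histone cluster genes and of 5 other lists (y axis, with the number of symbols) with 95% counting intervals, for LPS over Control and WT PDZ+LPS over LPS at left and for both mut PDZ+LPS comparisons at right. At right the histone cluster genes (1.26 and 0.94) and the RNAs without a poly(A) tail (1.13 and 1.29) lie apart from the other 4 lists, which lie between -0.09 and 0.31. Of the 397 symbols without a poly(A) tail, 74 had a count in LPS or mut PDZ+LPS.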

How the data were processed

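RNA of BEAS-2B cells was poly(A) selected, made into directional libraries and sequenced on paired ends. The authors trimmed the reads and mapped them with TopHat, and the submitters' processing notes name hg19. The counting tool, the annotation and the strand setting are not given in the sources used here. The authors deposited raw read counts per gene symbol, 1 file a library, although their methods name FPKM and geometric normalization. With 1 library in a group, no test between conditions was run.

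Libraries were scaled by the median of ratios to the geometric mean (DESeq2 1.42.0, R 4.3.3), with size factors of 1.15 in Control, 1.06 with LPS alone, 0.990 with WT PDZ+LPS and 0.851 with mut PDZ+LPS. A pseudocount of 1 was added before log2 for single genes, and none for sums or intervals. Intervals were exact binomial (Clopper-Pearson) at 95%. A gene was tested with at least 16 normalized counts in one of the 2 libraries compared and called at a fold of at least 2. For the correction, a lowess curve (span 0.3) was fitted over transcript length, subtracted, and fitted again over GC content, both taken from each gene's longest coding transcript in GENCODE 29. The files hold no coordinates, so positions are those of GENCODE 29 and RefSeq. TMM factors (edgeR 4.0.16), upper quartiles of the counts of detected genes, total counts, other minimums, folds and pseudocounts were the alternatives. The steps were tested on simulated data. Python 3.11.15, pandas 2.3.3, scipy 1.17.1 and statsmodels 0.14.6 were used.

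Every member that passed the minimum on its mean over the 4 libraries was named, with the 2 members on each side of the minimum, genes of the lists that were called (up to 6 a list) and SLBP, NPAT, H2AFZ, H3F3A, H3F3B, PCNA and CCNE2; other members named were chosen after their values were seen. The members and lists were chosen with earlier results of these data known.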

Additional observations from a re-analysis of the deposited data

How the results depend on the processing

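With 1 library in a group, no library could be left out. No paired analysis was possible because each group had 1 library. The sums, medians, counts of calls and type ratios in the 4 comparisons gave 36 results with 194 alternatives, and in 153 of these the value stayed within its counting interval, within the order-statistic interval of the median, or within 1.5 times the count. TMM, total-count and upper-quartile scaling, size factors without mut PDZ+LPS, and the sums over all members without HIST1H1C or with protein-coding members only were all among the 153, and no sum or median changed sign. The alternatives that set size factors on the 10% of genes with the shortest transcripts, left out mut PDZ+LPS from the size factors, set the minimum in a library outside the comparison, or set it in the library compared with were chosen after seeing the data.

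With size factors from the 10% of genes with the shortest transcripts, the log2 ratio of the sums was 0.86 for mut PDZ+LPS over LPS and 0.54 for mut PDZ+LPS over WT PDZ+LPS, the medians 0.77 and 0.50, the members called higher 13 and 8, and those called higher in LPS over Control 2. After the length and GC correction the medians were 0.67 and 0.39, the members called higher 11 and 5, and 2 in LPS over Control. At a fold of 1.5, 2 members were called higher and 7 lower in LPS over Control, and 25 higher in mut PDZ+LPS over WT PDZ+LPS. At a fold of 3, 0 were called higher and 1 lower in LPS over Control, 1 higher in WT PDZ+LPS over LPS, 12 in mut PDZ+LPS over LPS and 6 in mut PDZ+LPS over WT PDZ+LPS. With at least 64 normalized counts the members called were 0 in either direction in LPS over Control, 0 higher in WT PDZ+LPS over LPS, 5 in mut PDZ+LPS over LPS and 4 in mut PDZ+LPS over WT PDZ+LPS. With no minimum, 2 were called higher and 19 lower in LPS over Control, 13 higher and 5 lower in WT PDZ+LPS over LPS, 36 higher in mut PDZ+LPS over LPS, and 32 higher and 1 lower in mut PDZ+LPS over WT PDZ+LPS. With the minimum in the library compared with, 0 were called higher in LPS over Control, 0 in WT PDZ+LPS over LPS, 8 in mut PDZ+LPS over LPS and 6 in mut PDZ+LPS over WT PDZ+LPS. With a pseudocount of 5, 2 were called lower in LPS over Control and 1 higher in WT PDZ+LPS over LPS. Without HIST1H1C the H1 sum had a log2 ratio of -0.69 in LPS over Control and 1.55 in mut PDZ+LPS over LPS, and without HIST1H3D the H3 sum was at 1.57 in mut PDZ+LPS over WT PDZ+LPS. The fold and minimum settings change which members can be called by construction, and otherwise the cause was not tested. Among these settings, the share of all genes called was taken only for the correction and for the minimum in the library compared with. In LPS over Control these shares were 3.44% and 2.53% called higher. The counts at the other settings, those with no minimum included, cannot be set beside all genes. Depth limits single genes most: with 3 to 30 counts, a 2-fold difference is often within counting error.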
